A study of Mus musculus with 6 samples.

Results

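Genes that make, convert, carry and use arginine, from the argininosuccinate enzymes to the nitric oxide synthases, were followed in mouse hippocampus with and without the conditional deletion of Ctcf. The set holds 10 genes, picked by symbol from 24421 gene rows: Asl, Ass1, Nags, Arg2, Oat, Odc1, Nos1, Nos3, Ddah1 and Slc7a1. They were chosen with results of this same comparison known, so their differences between genotypes are given as a description with no p-value. RNA sequencing was done on 3 libraries from wild type mice and 3 from CTCF conditional knockout (cKO) mice, all labelled strain C57/Bl and hippocampus and described as biological replicates. Libraries are named wt 1 to 3 and cKO 1 to 3 by their repeat number, and values are listed in that order. The Cre line, age and sex of the animals were not stated in the sources used, so the cells in which the gene was deleted cannot be stated.

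Arginine is rebuilt from citrulline in a pair of steps. Argininosuccinate synthase (Ass1) joins citrulline to aspartate, and argininosuccinate lyase (Asl) splits the product into arginine and fumarate. In liver these steps belong to the urea cycle, while in brain they are known for returning the citrulline left by nitric oxide synthesis to arginine. Nitric oxide synthases turn arginine into nitric oxide and citrulline, and in the hippocampus nitric oxide is known as a diffusible messenger that acts through cGMP. Arginases turn arginine into ornithine, from which polyamines, glutamate and proline are made.

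The libraries held 14974750 to 23220455 counted reads, and 14916 genes passed a filter on low counts and were tested. Ctcf, the targeted gene, had 64.3, 65.2 and 70.3 CPM (read counts scaled to library size, with TMM factors) in the wild type libraries. It had 24.1, 34.5 and 35.8 CPM in the cKO libraries, a log2 fold change of -1.08 (SE 0.15). All 12 listed markers of hippocampal neurons were detected, with a summed level of 522 to 850 CPM in wild type against 617 to 828 CPM in cKO. Of these 9 had positive and 3 negative log2 fold changes, from -1.63 for C1ql2 to 1.36 for Spink8, with 1.17 for Fibcd1. The 1 called by edgeR was Wfs1, at 94.2, 121 and 112 CPM in wild type against 47.3, 48.9 and 50.1 CPM in cKO. Over all genes tested, edgeR called 1.51%. Libraries also differed in genes of neighbouring tissue. The 8 striatal markers summed to 622, 3016 and 1240 CPM in the wild type libraries compared with 134, 365 and 215 CPM in the cKO libraries. Markers of choroid plexus and ependyma summed to 12372 CPM in wt 2 and to 622 CPM in cKO 1, and lay between 3291 and 7738 CPM elsewhere. All 8 striatal and all 10 choroid plexus markers had negative log2 fold changes, as did the 10 oligodendrocyte markers (13924 to 18523 CPM summed in wild type, 10649 to 14109 CPM in cKO), and edgeR called 0 of them. Lists for astrocytes, microglia and dividing cells had log2 fold changes of both signs. Values without wt 2 and cKO 1 are given beside each tested member. In bulk tissue, fewer cells of a type and less RNA per cell cannot be told apart.

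Asl had by far the highest log2 fold change of the members. It had 19.8, 14 and 16.4 CPM in the wild type libraries (16.7 ± 2.89, SD, n = 3), from 299, 220 and 321 counts. In the cKO libraries it had 84.7, 70.5 and 66.9 CPM (74.1 ± 9.40, SD, n = 3), from 1365, 1107 and 1589 counts. Every cKO library lay far above every wild type library, and the range within each group was smaller than the gap between them. The cKO level was 4.42-fold the wild type level, a log2 fold change of 2.14 (SE 0.15). Of the 14916 genes tested, 18 had a higher log2 fold change. The log2 fold change of Asl ran from 2.03 to 2.28 when each library was left out in turn, and was 1.93 without wt 2 and cKO 1. The authors' deposited table gives Asl a log2 fold change of 2.14. Within the cKO group, cKO 1 had both the highest Asl and the lowest Ctcf, and with 3 libraries no relation between them was tested.

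**Figure D1:**
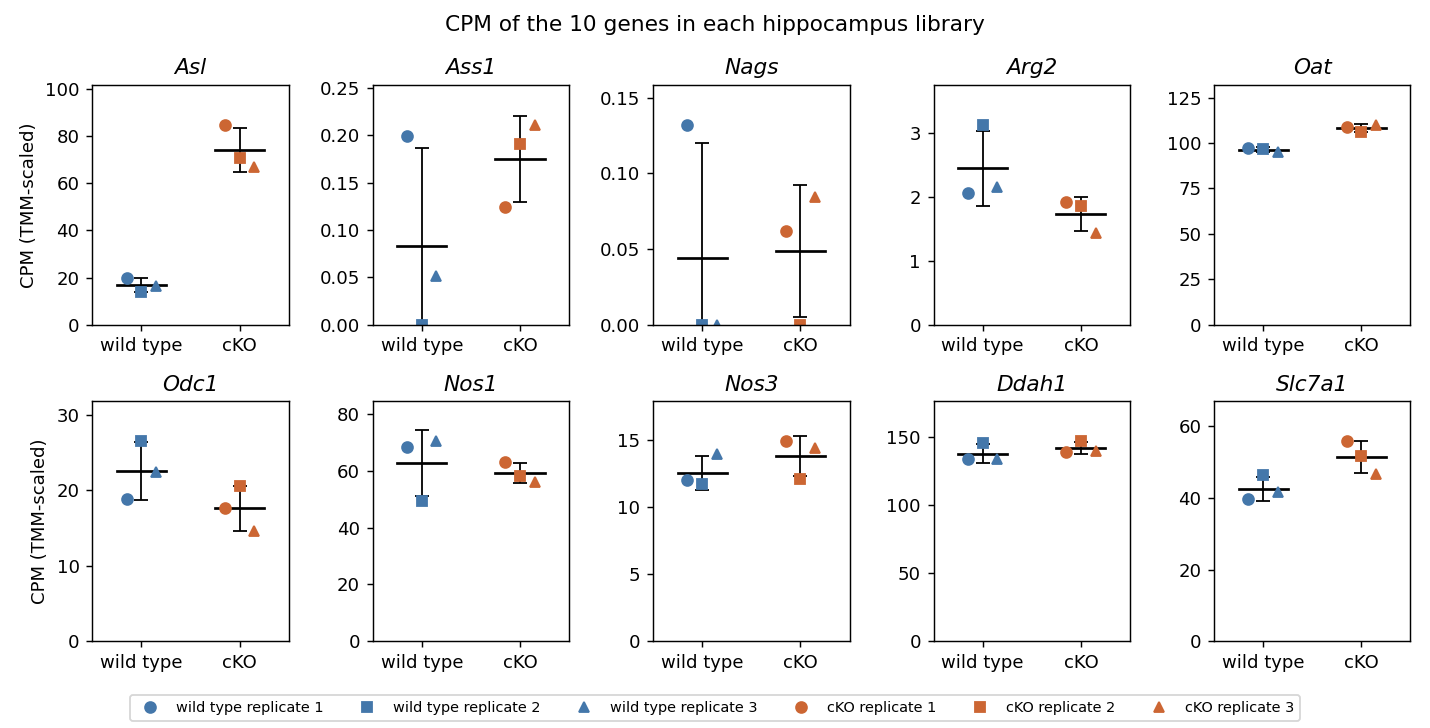
CPM of each of the 10 genes in the 3 wild type (blue) and 3 cKO (orange) libraries, with bars for the mean and its SD (n = 3) and a separate y axis from 0 for each gene. Asl moves from 14 to 19.8 CPM in wild type to 66.9 to 84.7 CPM in cKO, while Oat, Slc7a1 and Arg2 separate by small steps and Odc1, Nos1, Nos3 and Ddah1 overlap.

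Asl was also set beside genes for proteins that use or carry arginine, which Asl releases. Levels of different genes were compared as CPM per kilobase of exon, using the union of exons in GENCODE M21. On that scale the ratio of Asl to Nos1 was 0.668, 0.657 and 0.539 in the wild type libraries and 3.10, 2.79 and 2.75 in the cKO libraries. The ratio of Asl to Arg2, the mitochondrial arginase, was 2.15 ± 0.768 in wild type and 12.7 ± 1.29 in cKO (SD, n = 3 each). Relative to Slc7a1, the arginine importer, Asl was at 0.95 ± 0.231 in wild type and 3.43 ± 0.182 in cKO. In every cKO library Asl thus stood above each of these 3 genes per length, while in wild type it stood below Nos1 in all 3 libraries and below Slc7a1 in wt 2 and wt 3. The wild type order rests on the length used. By the longest transcript of each gene, a comparison added after the values were seen, the ratio of Asl to Nos1 was 1.21, 1.19 and 0.979 in wild type and that to Slc7a1 was 1.48, 0.902 and 1.17, while in cKO they were 4.99 to 5.63 and 4.07 to 4.52. The wild type means of Asl thus lay above those of both genes by that length.

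Asl lies on the minus strand of chromosome 5 (130011258 to 130024381 in RefSeq, GRCm38.p6, which also gives the positions of the other members). GENCODE M21 lists 8 transcripts for it, and the start of the longest-reaching one, at 130029247, is 43 bases from the start of Crcp, which encodes a subunit of RNA polymerase III and runs the opposite way. Counts per gene do not show which start was used. Crcp had 30.4, 27.1 and 25.9 CPM in wild type against 26.7, 20.9 and 24.4 CPM in the cKO libraries (log2 fold change -0.21, SE 0.12, adjusted p = 0.36 by edgeR). Gusb, the lysosomal beta-glucuronidase on the other side, 8.2 kb away, had 17.3 ± 1.08 CPM in wild type against 15.2 ± 0.686 CPM in cKO (log2 fold change -0.19, SE 0.10, edgeR adjusted p = 0.316). Both flanking genes thus had values opposite in sign to that of Asl.

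Among the 5 tested genes on each side of Asl, edgeR called 0 at an adjusted p below 0.05, against 1.51% of all genes tested. DESeq2 and limma-voom also called 0, and 1 of the 10 had an unadjusted p below 0.05 by edgeR, as did 19.9% of all genes tested. These 10 neighbours, reaching from Chchd2 (gap of 123.8 kb) to Tmem248 (195.4 kb), had log2 fold changes from -0.71 to 0.03, and 9 were negative. The smallest adjusted p belonged to Zbed5, a zinc finger gene, with 5.80 ± 0.336 CPM in wild type against 3.76 ± 0.284 CPM in cKO (log2 fold change -0.62, SE 0.15, edgeR adjusted p = 0.0947). Nupr1l had the lowest log2 fold change of the 10 (-0.71, SE 0.38), at a level of 1.04 ± 0.280 CPM in wild type. Vkorc1l1, a vitamin K epoxide reductase gene, and Tpst1, a tyrosylprotein sulfotransferase gene, had log2 fold changes of -0.14 and -0.15. Kctd7 (0.03), Rabgef1 (-0.05) and Chchd2 (-0.06) were near 0. With 10 tested genes on each side, 1 of 20 fell, Gbas at a gap of 252.9 kb, with 82.8 ± 4.28 CPM in wild type against 58.6 ± 5.40 CPM in cKO (log2 fold change -0.50, SE 0.09, edgeR adjusted p = 0.0485). That call was lost with the replicate block (edgeR adjusted p = 0.0679), with limma-voom, with upper-quartile scaling and without any 1 library, and over all alternatives the adjusted p ran from 0.000546 with DESeq2 to 0.198 without cKO 2.

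**Figure D2:**
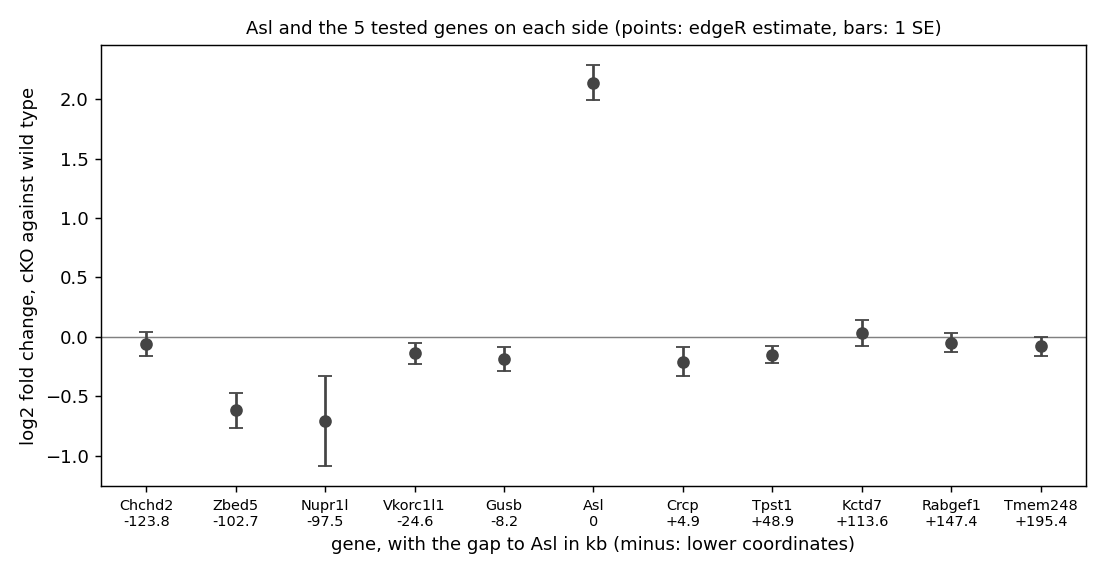
Log2 fold change of cKO against wild type (y axis) for Asl and the 5 tested genes on each side of it along chromosome 5 (x axis, with the gap to Asl in kb); points are edgeR estimates and bars are 1 SE. Asl stands at 2.14, and its neighbours lie between -0.71 and 0.03.

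The genes whose level ran most like that of Asl over the 6 libraries were not its neighbours. Pearson's r of log2(CPM + 0.01), computed for 14253 genes with a mean of at least 1 CPM, was highest for Lsm8 (0.999), an Lsm-family RNA-binding protein gene on chromosome 6. Next came Ism1 (0.9989), a secreted protein gene on chromosome 2, and Mettl10 (0.9988), a methyltransferase gene on chromosome 7. Ercc4 (0.9972), which encodes the XPF endonuclease of nucleotide excision repair, is on chromosome 16. Nsun5 (0.9971), an RNA methyltransferase gene, is on chromosome 5, outside the 10 genes on each side. All libraries of a genotype share the step between genotypes, so r is high for any gene with a clear step up in cKO: 305 genes had r over 0.95. The sizes of the step differ widely, with log2 fold changes of 1.01 for Lsm8, 1.72 for Ism1, 0.29 for Mettl10, 0.53 for Ercc4 and 0.22 for Nsun5. Among the other members r with Asl was 0.975 for Oat and 0.791 for Slc7a1, and lowest for Arg2 (-0.745).

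Ass1, the enzyme before Asl, was close to undetected in both genotypes. It had 3, 0 and 1 counts in the wild type libraries and 2, 3 and 5 counts in the cKO libraries. The gene lies on chromosome 2 (31470270 to 31520670, plus strand). Summed over each group these are 4 counts in wild type, or 0.0795 CPM (95% exact Poisson interval 0.0217 to 0.203), and 10 counts in cKO, or 0.180 CPM (0.0863 to 0.331). The intervals overlap, and they cover counting error only. Per kilobase of exon, Ass1 was at 0.0345 and Asl at 3.47 CPM in wild type, so the mRNAs of these consecutive enzymes were at very unequal levels. Nags, which makes the N-acetylglutamate that activates carbamoyl phosphate synthetase in mitochondria, had 2, 0 and 0 counts in wild type and 1, 0 and 2 counts in cKO. Nags lies on chromosome 11 (102145513 to 102149528, plus strand). Neither gene passed the filter on low counts, and no difference was detectable at this depth.

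Among the enzymes around ornithine, Arg2 and Oat separated by genotype and Odc1 overlapped. Groups also did not overlap in 27% of all genes tested. Arg2, the mitochondrial arginase, lies on chromosome 12 (79130788 to 79156301, plus strand). Arg2 had 2.05, 3.12 and 2.15 CPM in wild type against 1.92, 1.85 and 1.43 CPM in the cKO libraries (31 to 49 and 29 to 34 counts). The cKO values all lay under the wild type values, by a narrow margin. Its log2 fold change was -0.50 (SE 0.26), or -0.29 without wt 2 and -0.38 without that library and cKO 1. The 3′ end of Arg2 overlaps Vti1b, a vesicle fusion gene on the opposite strand, and whether the counts kept strand was not stated. Vti1b itself had 116 to 124 CPM in cKO and 129 to 163 CPM in wild type, with the highest level in wt 2, as for Arg2. The part of Vti1b reads in the Arg2 values was not tested.

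Oat, the mitochondrial ornithine aminotransferase, which links ornithine to glutamate and proline, lies on chromosome 7 (132557475 to 132576398, minus strand). It had 97.5, 96.7 and 95.1 CPM in the wild type libraries and 109, 106 and 110 CPM in the cKO libraries. The groups did not overlap, with an SD of 1.19 CPM in wild type against 1.87 CPM in cKO, and the cKO level was 1.12-fold the wild type level (log2 fold change 0.17, SE 0.06; 0.16 without wt 2 and cKO 1). GENCODE M21 annotates an extended Fgfr2 gene model across Oat on the same strand, so reads shared with it are uncertain. Fgfr2 had 70.4, 98.7 and 90.1 CPM in wild type against 53.7, 81.6 and 73.5 CPM in cKO. Its groups overlapped (log2 fold change -0.31, edgeR adjusted p = 0.368). The part of Fgfr2 reads in the Oat values was not tested.

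Odc1, ornithine decarboxylase, the first and rate-limiting enzyme of polyamine synthesis, had 18.9, 26.5 and 22.4 CPM in wild type against 17.7, 20.6 and 14.6 CPM in the cKO libraries. Odc1 lies on chromosome 12 (17544808 to 17551502, plus strand). The groups overlapped, as cKO 2 lay above wt 1. The log2 fold change was -0.36 (SE 0.17), and it was -0.23 without wt 2, -0.24 without cKO 3 and -0.24 without wt 2 and cKO 1.

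Neither nitric oxide synthase differed between genotypes by more than the spread of its libraries. Nos1, the neuronal enzyme, had 68.4, 49.3 and 70.4 CPM in wild type against 63.1, 58.3 and 56.2 CPM in the cKO libraries. Nos1 lies on chromosome 5 (117866839 to 117958840, plus strand). All 3 cKO libraries lay within the wild type range. Its log2 fold change was -0.08 (SE 0.14), and it moved to -0.23 without wt 2, to 0.01 without wt 3 and to -0.28 without wt 2 and cKO 1. Hippocampal Nos1 is known from interneurons among other cells. The 10 inhibitory neuron markers summed to 1136 to 1350 CPM in wild type against 1017 to 1157 CPM in cKO, 7 of the 10 had negative log2 fold changes and 0 were called by edgeR. None was at 0, and their part in the Nos1 values was not tested.

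Nos3, the endothelial enzyme, had 12, 11.7 and 14 CPM in wild type against 14.9, 12.1 and 14.4 CPM in the cKO libraries. The groups overlapped (log2 fold change 0.14, SE 0.13), and the value was 0.04 without wt 2 and cKO 1. The 10 endothelial markers summed to 268 to 297 CPM in wild type against 253 to 290 CPM in cKO, and 0 were called. Nos3, on the plus strand of chromosome 5 (24364816 to 24384474), also overlaps Atg9b on the opposite strand, which had 3.06 to 7.48 CPM over the 6 libraries. Per kilobase, Nos1 exceeded Nos3 in every library, by 1.85 ± 0.275 times in wild type and 1.6 ± 0.173 times in cKO (SD, n = 3 each).

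Ddah1 breaks down asymmetric dimethylarginine, an inhibitor of nitric oxide synthases that is released from methylated proteins, and its gene lies on chromosome 3 (145758692 to 145894277, plus strand). It had 134, 146 and 134 CPM in wild type against 139, 147 and 140 CPM in the cKO libraries. The groups overlapped, and the log2 fold change was 0.04 (SE 0.07), with a range of 0.02 to 0.09 when each library was left out in turn and 0.10 without wt 2 and cKO 1.

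Slc7a1 encodes CAT-1, a cationic amino acid transporter that carries arginine, lysine and ornithine into cells, and lies on chromosome 5 (148327410 to 148399904, minus strand). It had 39.8, 46.3 and 41.6 CPM in wild type against 55.8, 51.6 and 46.8 CPM in the cKO libraries. Every cKO library lay above every wild type library, though cKO 3 exceeded wt 2 by very little. The cKO level was 1.21-fold the wild type level (log2 fold change 0.27, SE 0.10), with 0.21 to 0.33 when each library was left out in turn and 0.27 without wt 2 and cKO 1.

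Oat and Slc7a1 were, beside Asl, the members whose cKO libraries all lay above the wild type libraries, as in 14.6% of all genes tested. The 250 bases before the start sites of Oat and Slc7a1 are shown for that reason. Sequences are RefSeq's (GRCm38.p6), which held a window for 7 of the 10 members and none for Asl, Arg2 and Nos3. They were searched on both strands for the CTCF motif core, for CCAAT and for the GC box GGGCGG, and matches are in capitals. Both windows read along the minus strand, Slc7a1 at chr5:148399905-148400154 and Oat at chr7:132576399-132576648.
Slc7a1: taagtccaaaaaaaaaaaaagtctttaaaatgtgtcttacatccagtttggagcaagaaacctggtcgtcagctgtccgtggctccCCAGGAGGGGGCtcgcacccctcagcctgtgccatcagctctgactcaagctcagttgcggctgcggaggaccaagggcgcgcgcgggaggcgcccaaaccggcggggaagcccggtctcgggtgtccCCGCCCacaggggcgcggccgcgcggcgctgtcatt
Oat: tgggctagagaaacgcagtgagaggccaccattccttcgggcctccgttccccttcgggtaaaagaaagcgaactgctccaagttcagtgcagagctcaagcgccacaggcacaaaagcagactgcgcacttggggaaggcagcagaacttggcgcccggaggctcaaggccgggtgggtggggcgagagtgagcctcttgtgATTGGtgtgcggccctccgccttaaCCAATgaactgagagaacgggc
The Slc7a1 window held 1 match to the CTCF core, from 164 to 153 bases before the start, as did 2.07% of 32851 such promoter windows. No other member's window held one, including a second Slc7a1 window at another start. The GC box match in Slc7a1 is shared by 32.7% of windows, and Oat has 2 CCAAT matches, a motif found in 33.8% of windows. No matches overlapped. A match describes the letters and does not show binding.

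Ordered by wild type level per kilobase of exon, the members ran Oat, Ddah1, Odc1, Nos1, Slc7a1, Asl, Nos3, Arg2, Ass1 and Nags. Oat (40.9 ± 0.502 CPM per kilobase, SD, n = 3) and Ddah1 (34.6 ± 1.87) stood well above the rest and did not overlap each other. Odc1 (6.64 ± 1.12) and Nos1 (5.62 ± 1.04) overlapped between libraries. Slc7a1 (3.69 ± 0.288), Asl (3.47 ± 0.599) and Nos3 (3.03 ± 0.303) overlapped from each to the next, and Arg2 (1.71 ± 0.415) lay below them. Ass1 (0.0345 ± 0.0427) and Nags (0.0155 ± 0.0269) came last and overlapped. In cKO, Asl was the third at 15.3 ± 1.94 CPM per kilobase, behind Ddah1 at 35.6 ± 1.02 and ahead of Nos1 at 5.31 ± 0.316. The place of Asl depends on the length used. By its longest transcript, of 2.413 kb in place of 4.831 kb for all exons, it was the fourth in wild type at 6.94 ± 1.2 and still the third in cKO at 30.7.

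**Figure D3:**
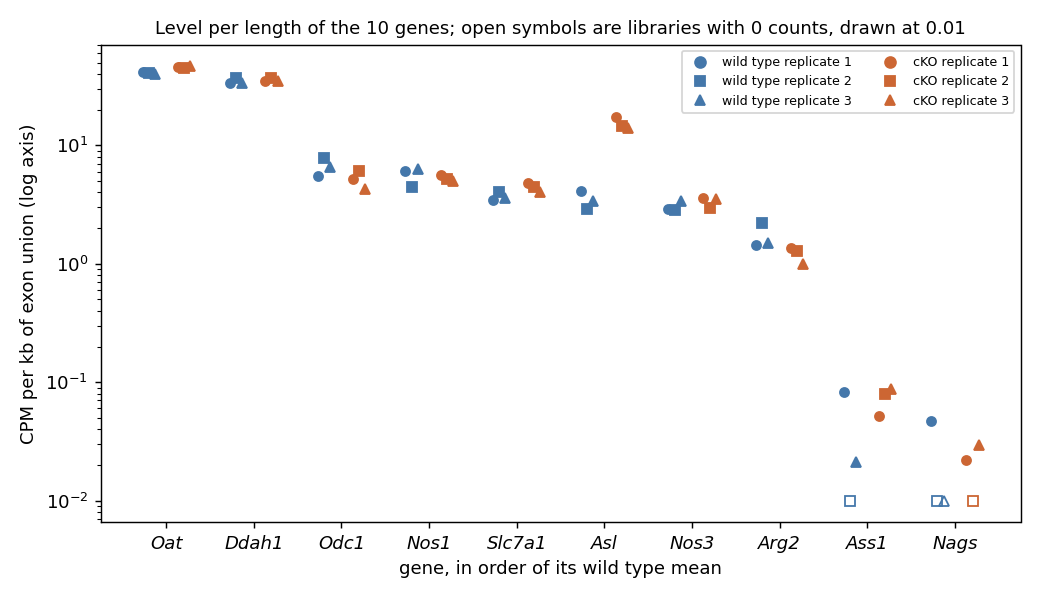
CPM per kilobase of exon (log y axis) for the 10 genes in order of their wild type mean (x axis), in 3 wild type (blue) and 3 cKO (orange) libraries; open symbols are libraries with 0 counts, drawn at 0.01. Asl moves from a mean of 3.47 in wild type to 15.3 in cKO, and the remaining genes keep close to their wild type level, apart from the sparse Ass1 and Nags.

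Of the 10 members 8 passed the filter, and edgeR called 1 of these, Asl, at an adjusted p below 0.05, against 1.51% of all genes tested (1.05% higher and 0.463% lower). DESeq2, limma-voom and edgeR with the replicate block also called Asl alone of the 8, against 5.96%, 1.33% and 1.24% of all genes. Groups did not overlap in 4 of the 8, against 27% of all genes tested. The median log2 fold change of the 8 was 0.09, with 5 positive and 3 negative, and that of all genes tested was -0.00424, with 49.2% positive. Since the members were chosen on this comparison, nothing is read from these counts.

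The wider pathway was covered by 120 other genes in 8 lists, of which 101 were tested. These lists too were chosen with earlier results of these data known, so their counts and p-values serve as a description. Gucy1a2, the alpha 2 subunit of soluble guanylyl cyclase, the receptor for nitric oxide, rose, and edgeR called no gene lower. That is 0.99% of the genes tested in the lists, against 1.51% of all genes. The median log2 fold change of the 101 was -0.01, and 18 had an unadjusted p below 0.05, a cut passed by 19.9% of all genes tested.

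Gucy1a2 had 44.9, 44.0 and 54.5 CPM in wild type against 69.1, 70.4 and 70.5 CPM in the cKO libraries. The cKO libraries were nearly equal and all lay above wild type. The log2 fold change was 0.55 (SE 0.10, edgeR adjusted p = 0.047). With the replicate number as a block the edgeR adjusted p was 0.057, and over all alternatives it ran from 0.000317 with DESeq2 to 0.187 without cKO 2. The call was lost without any 1 library and without wt 2 and cKO 1 (adjusted p = 0.116 by edgeR), while the log2 fold change stayed between 0.49 and 0.66. It pairs with a beta subunit to form the enzyme. Gucy1a3, the alpha 1 subunit, also called Gucy1a1, had 46.8, 73.0 and 49.3 CPM in wild type against 37.2, 31.2 and 42.1 CPM in cKO (log2 fold change -0.61, SE 0.19, edgeR adjusted p = 0.15, DESeq2 adjusted p = 0.0437). Its highest value was in wt 2, the library with the highest summed striatal markers. The part of striatal RNA in the Gucy1a3 values was not tested. Gucy1b3, the beta 1 subunit that pairs with either alpha, had 125 ± 17.3 and 137 ± 6.77 CPM (log2 fold change 0.13, edgeR adjusted p = 0.536). Whether the alpha subunits differ from each other in response was not tested.

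In the same list of 18 tested genes of cGMP signalling and nitric oxide removal, 7 log2 fold changes were positive and 11 negative (median -0.09). Phosphodiesterases that break down cyclic nucleotides had its lowest values. Pde1b had 283, 672 and 385 CPM in wild type against 186, 196 and 201 CPM in the cKO libraries (log2 fold change -1.2, SE 0.28, edgeR adjusted p = 0.0901, DESeq2 adjusted p = 0.000356). Pde10a had 128, 551 and 261 CPM in wild type against 83.4, 116 and 81.6 CPM in cKO (log2 fold change -1.74, SE 0.47, edgeR adjusted p = 0.121). Both are abundant in striatal neurons, and both were highest in wt 2, the library with the highest summed striatal markers (3016 CPM). Without that library the log2 fold change was -0.78 for Pde1b (edgeR adjusted p = 0.0405) and -1.06 for Pde10a (0.119). Without cKO 1 as well it was -0.75 (edgeR adjusted p = 0.086) and -0.98 (0.227). The part of striatal RNA in these values was not tested. Pde2a, the phosphodiesterase stimulated by cGMP, had 382 ± 169 and 276 ± 71.0 CPM (edgeR adjusted p = 0.449).

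**Figure D4:**
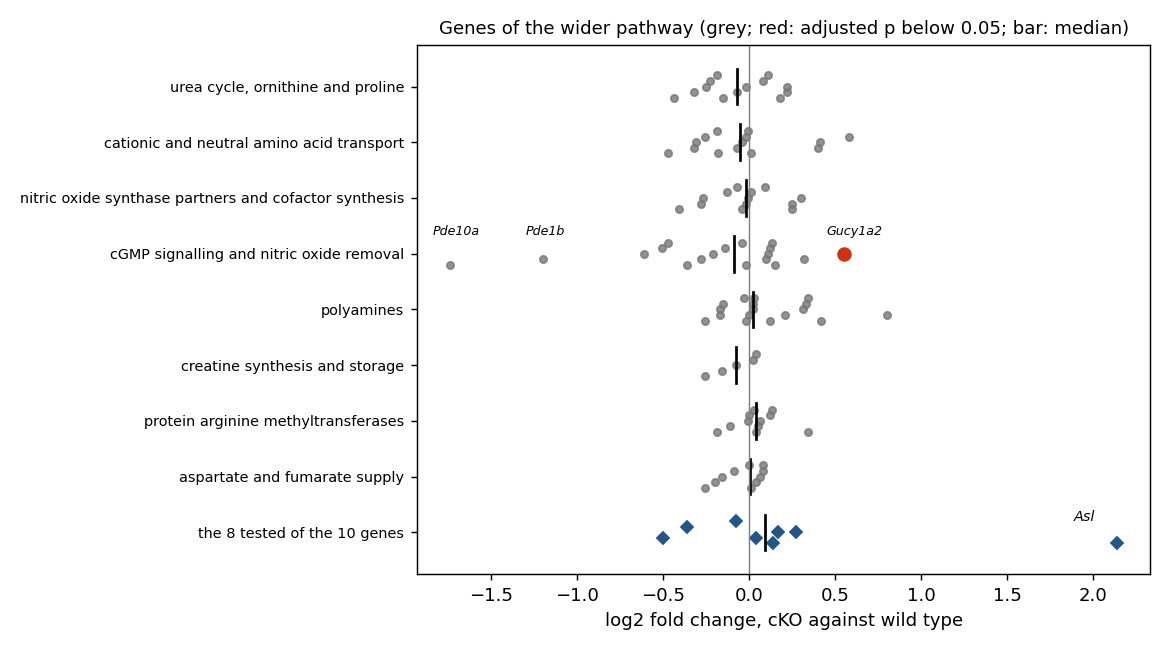
Log2 fold change of cKO against wild type (x axis) for the tested genes of 8 pathway lists (grey, y axis by list) and for the 8 tested members (blue diamonds); black bars are medians and red marks an adjusted p below 0.05. List medians lie between -0.09 and 0.04, Gucy1a2 is at 0.55, and Asl is at 2.14.

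Cofactors and partners of the nitric oxide synthases had 13 tested genes, with 5 positive and 8 negative log2 fold changes (median -0.02) and 0 called by edgeR, while 3 had an unadjusted p below 0.05 (19.9% of all genes) and DESeq2 called 1, Nosip (5.96% of all genes). Nosip, a nitric oxide synthase interacting protein, had 65.6, 60.7 and 60.8 CPM in wild type against 51.8, 50.6 and 51.1 CPM in cKO (log2 fold change -0.28, SE 0.07, edgeR adjusted p = 0.0905, DESeq2 adjusted p = 0.0287). Qdpr, which regenerates the cofactor tetrahydrobiopterin, had 435 ± 24.3 and 362 ± 41.4 CPM (log2 fold change -0.27, edgeR adjusted p = 0.207). Dlg4, the postsynaptic scaffold PSD-95 to which Nos1 binds, had 893 ± 116 and 816 ± 92.8 CPM (log2 fold change -0.13, edgeR adjusted p = 0.589). Nos2, the inducible synthase, was at 0.729 ± 0.416 and 0.861 ± 0.0291 CPM.

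Of 19 other genes of the urea cycle, ornithine and proline, 13 were tested, with 5 positive and 8 negative log2 fold changes (median -0.07) and 0 called by edgeR, DESeq2 or limma-voom; 1 had an unadjusted edgeR p below 0.05. Gad1 and Gad2, which make GABA from glutamate, had log2 fold changes of -0.25 and -0.32 (edgeR adjusted p = 0.376 and 0.276). The other liver urea cycle enzymes were near the detection limit, as were Ass1 and Nags. Cps1, carbamoyl phosphate synthetase, had 0.147 ± 0.0830 and 0.161 ± 0.0341 CPM. Otc, ornithine transcarbamylase, had 0.0212 ± 0.0368 and 0.0140 ± 0.0243 CPM, and Arg1, the cytosolic arginase, had 0.0732 ± 0.0770 and 0.189 ± 0.0627 CPM. Asl was therefore the only one of the urea cycle enzymes Cps1, Otc, Ass1, Asl and Arg1 that passed the filter on low counts.

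Amino acid carriers other than Slc7a1 had 14 tested genes, 4 positive and 10 negative (median -0.06), with 0 called by edgeR, DESeq2 or limma-voom and 2 at an unadjusted edgeR p below 0.05. Slc7a6, a carrier that exchanges cationic for neutral amino acids, had 25, 22.1 and 23.7 CPM in wild type against 34.1, 31.5 and 27.6 CPM in cKO (log2 fold change 0.40, SE 0.11, edgeR adjusted p = 0.114). Slc7a11, the cystine-glutamate exchanger, had 33.8 ± 5.05 and 45.1 ± 3.67 CPM (log2 fold change 0.41, SE 0.12, edgeR adjusted p = 0.145). The glutamine carriers Slc38a1 and Slc38a2 had log2 fold changes of 0.01 and -0.02.

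The lists on the uses of arginine and its products also held 0 genes called by edgeR, DESeq2 or limma-voom. Polyamine genes had 11 positive and 6 negative of 17 (median 0.02), with 5 at an unadjusted edgeR p below 0.05 (19.9% of all genes). Sms, spermine synthase, had 67.4 ± 12.3 CPM in wild type against 90.2 ± 4.79 CPM in cKO (log2 fold change 0.42, edgeR adjusted p = 0.157), and Azin2, an antizyme inhibitor, had 38.3 ± 0.928 and 32 ± 2.30 CPM (log2 fold change -0.26, edgeR adjusted p = 0.153). Eif5a, which carries the polyamine-derived residue hypusine, and Atp13a2, a lysosomal polyamine exporter, had log2 fold changes of 0.00 and 0.02. Creatine genes had 2 positive and 3 negative of 5 (median -0.08, with 1 at an unadjusted p below 0.05). Of these Gatm, which uses arginine for creatine synthesis, had 169 ± 29.7 and 150 ± 33 CPM, Ckb, brain creatine kinase, had a log2 fold change of -0.26 (edgeR adjusted p = 0.189), and the mitochondrial Ckmt1 had -0.08. Protein arginine methyltransferase genes, whose products are a source of the substrates of Ddah1, had 8 positive and 3 negative of 11 (median 0.04, with 0 at an unadjusted p below 0.05). Prmt1 and Prmt8 had log2 fold changes of 0.03 and 0.04, Prmt6 had 0.34 (edgeR adjusted p = 0.274) and Wdr77, a partner of Prmt5, had 0.13.

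Genes that supply the aspartate used by Ass1 or take up the fumarate released by Asl had 5 positive and 5 negative log2 fold changes of 10 tested (median 0.00), with 1 at an unadjusted edgeR p below 0.05. Got2, the mitochondrial aspartate aminotransferase, had 97.8 ± 3.94 CPM in wild type against 81.5 ± 5.75 CPM in cKO (log2 fold change -0.26, SE 0.08, edgeR adjusted p = 0.142). The cytosolic Got1 had 455 ± 18.3 and 456 ± 26.3 CPM (log2 fold change 0.01). Mdh1, malate dehydrogenase, had a log2 fold change of -0.09. Adsl, adenylosuccinate lyase, an enzyme of the same superfamily as Asl that also releases fumarate, had 30.9 ± 0.861 and 26.9 ± 2.56 CPM (log2 fold change -0.20, edgeR adjusted p = 0.29), so its value was opposite in sign to that of Asl.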

How the data were processed

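The authors deposited raw whole-number counts by gene symbol. Named in the submitters' processing notes, without order or settings, are TopHat2 2.0.10, cutadapt, DESeq2 1.6.3, HTSeq 0.6.1p1 and build mm10. The annotation was not stated. The deposited table also holds normalised counts (a signal, counts times 1 constant per library, per the values and file headers), and the authors' log2 fold change with p-values, raw and adjusted; of these only the log2 fold change of Asl is used. Column names, which give genotype and repeat, identified the samples, with 0 columns left over. No pair of libraries agreed within sampling noise (chi-square per degree of freedom at least 10.66).

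The test was edgeR's quasi-likelihood test (edgeR 4.0.16, R 4.3.3; expression filter with a minimum count of 10, TMM, Benjamini-Hochberg over 14916 genes, threshold 0.05). SE is the log2 fold change divided by the root of F. Alternatives were DESeq2 1.42.0, limma-voom (limma 3.58.1), other scalings, filters and gene lengths, a replicate block and left-out libraries. Same-numbered libraries deviated together from their group means on log2(CPM + 0.5), with r of 0.219, 0.426 and 0.101 for replicates 1 to 3. Of differently numbered pairs, wt 1 with cKO 3 had r of 0.202, above the value for replicate 3, and the others ran from -0.425 to 0.0488. By the rule that all 3 exceed 0.1 the numbers were read as paired. That reading is from the values alone, since the labels name no shared litter or batch. The main fit had no block, and the pairing entered only in the alternative with the replicate block. The fit was tested on simulated data. Positions are from RefSeq GRCm38.p6, exon lengths from GENCODE M21.

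The members and lists were chosen with earlier results of these data known. Genes named are Ctcf, the members, the 5 tested genes on each side of Asl, the 5 most correlated with Asl, and in each list every called gene plus the 2 with the smallest p and the 2 with the highest level. Some items that this rule or the annotation gives are not reported here. Gucy1a3, Gucy1b3, Pde10a, Nos2, Cps1, Otc, Arg1, Gbas, Wfs1, C1ql2, Spink8, Fibcd1, Vti1b, Fgfr2, Atg9b, Oaz1, Amd1 and Amd2 were added after their values were seen. Marker lists not named in the results were summed per library as a check of tissue content.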

Additional observations from a re-analysis of the deposited data

How the results depend on the processing

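Of 112 recomputed log2 fold changes of the 8 tested members, 111 lay within 1 SD of the wild type libraries from the reported value. The exception was Oat with upper-quartile scaling (0.15), and the sign changed in 1 case, Nos1 without wt 3 (0.01). That SD, of log2 CPM, ran from 0.0178 for Oat to 0.332 for Arg2, so the cut differs widely between genes. Arg2 counted as within it while its log2 fold change ran from -0.61 to -0.29. All alternatives refit the same counts or a part of them, so the 111 does not show that the estimates are stable. Over the 14 alternatives the log2 fold change of Asl ran from 1.93 to 2.28. Nothing is read from its calls, since the members were chosen on this comparison. Over the whole table edgeR called 156 genes higher and 69 lower. DESeq2 called 522 and 367. Leaving out 1 library gave 11 to 97 higher and 1 to 50 lower, and leaving out wt 2 and cKO 1 gave 75 and 36; fewer libraries entered these fits. In the pathway lists, where edgeR called 1 gene higher (Gucy1a2) and 0 lower, DESeq2 called 3 lower (Gucy1a3, Nosip and Pde1b). With the replicate block 0 were higher, and the block changed no other call among the members, lists and 5 neighbours on each side, with 185 genes called in all. Without any 1 library 0 pathway genes were higher, and 0 to 1 were lower (Pde1b without wt 2). With both wt 2 and cKO 1 left out, 0 were higher. Among neighbours of Asl, 1 was lower with 10 genes on each side (Gbas, not called with the block, 0.0679) and 0 with 5 or 3. The order of the members by wild type level kept 6 to 10 of 10 places when 1 wild type library was left out, the 6 without wt 2, and 7 with the longest transcript. The cause of these shifts was not tested. Counts of 0 to 5 for Ass1 and Nags limit what can be said of them.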

Other observations

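Among the polyamine genes, Oaz1, the antizyme that targets ornithine decarboxylase for degradation and is made in most cells, had 66 to 113 counts per library (4.62 CPM in wild type against 4.52 CPM in cKO). Amd1 and Amd2, the genes of adenosylmethionine decarboxylase, were listed at 0 in all 6 libraries, as was the pseudogene Oaz1-ps. The assignment of reads from copies of these genes was not tested, and these listed levels are uncertain.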
